A study of Mus musculus with 34 samples.

Results

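The interferon-stimulated genes described here are 43 genes, taken by symbol from a list of known members of the type I interferon response and its sensors and transcription factors. Of these, 41 had a value in the culture table, in which 16562 genes were tested, and Ifit3 and Ifitm3 were not analysed here. All 41 lay above the lowest value of the table in every group, so the filter on low values removed none. MOSJ-Dkk-1 cells (MOSJ-Dkk1 in the labels) are an RFP-labelled mouse osteochondral sarcoma line that carries a lentiviral vector and secretes human Dkk-1, an inhibitor of canonical Wnt signalling, from a constitutive cytomegalovirus promoter. All 18 cultures were of this modified line, and the vector control line was not analysed here.

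The cultures received no morpholino (NT, labelled as vehicle), 5 µM DkkMo, an antisense vivo morpholino directed at the human Dkk-1 transcript, or 5 µM scrMo, a morpholino of mismatched sequence, added 24 h after seeding. The dose is that of the labels, and 1 passage of the study's text gives a higher one for DkkMo. Log-phase cultures were grown for 6 days with regular changes of medium. Cultures under nutritional stress were held at confluence for 48 h and had no change of medium for 4 days. Each of the 6 groups held 3 libraries. Nothing states that these came from separate cultures, so p-values measure only the spread between these libraries, and 2 Stress NT libraries share a number in their titles but differed by more than sampling noise. The libraries held 25.9 to 44.8 M reads on the listed genes, and at this depth each of the 41 genes was represented by at least 38 reads in every library.

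Type I interferons are secreted by cells that detect viral or misplaced nucleic acid. They bind a receptor made of IFNAR1 and IFNAR2, the kinases JAK1 and TYK2 pass the signal on by phosphorylation, and a complex that holds STAT2 and IRF9 binds the interferon-stimulated response element, or ISRE, in the promoters of target genes. The products bind or degrade viral RNA, trap virions, modify other proteins with the ubiquitin-like protein ISG15 and, through IRF7 and the cytoplasmic RNA sensors, raise further interferon production. Many tumour cells keep a low level of this programme without infection.

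The promoters were searched for the letters of the ISRE core, GAAANNGAAA (N is any base), on both strands, and for those of the palindromic interferon-γ-activated site (GAS), TTCNNNGAA, in the 250 bases before each start site annotated by RefSeq on GRCm38.p6. A promoter was listed for 33 of the 43 genes, and 13 of these (39.4%) held the ISRE letters, against 3.46% of all 27025 genes listed. The GAS letters were found in 6 of the 33 (18.2%), against 8.13% of all genes. The stretches below are shown because genes with these letters differed widely in how they responded to stress: Isg15, Ifit1, Gbp7 and Oas3 fell in NT cultures by 1.83 to 2.75 on the variance-stabilised log2 scale, Bst2 by 0.70, and Rsad2 was not called. Capitals mark the ISRE letters, on either strand and with overlapping matches joined, or, for Irf1, the GAS letters. Each is read 5′ to 3′ on the strand of the gene and lies upstream of the start.
Isg15, chr4:156200855-156200904, minus strand: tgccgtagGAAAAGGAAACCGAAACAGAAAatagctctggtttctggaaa
Ifit1, chr19:34640784-34640833, plus strand: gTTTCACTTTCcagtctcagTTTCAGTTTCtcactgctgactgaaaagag
Gbp7, chr3:142530263-142530312, plus strand: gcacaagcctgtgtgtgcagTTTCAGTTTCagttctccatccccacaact
Oas3, chr5:120777705-120777754, minus strand: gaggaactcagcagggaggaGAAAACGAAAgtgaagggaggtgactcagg
Bst2, chr8:71537567-71537616, minus strand: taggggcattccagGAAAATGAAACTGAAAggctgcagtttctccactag
Rsad2, chr12:26456543-26456592, minus strand: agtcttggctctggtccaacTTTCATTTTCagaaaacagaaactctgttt
Irf1, chr11:53769904-53769952, plus strand: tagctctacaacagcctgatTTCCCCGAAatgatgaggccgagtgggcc

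In these windows the match nearest to the start began 66 bases before it in Isg15, 85 in Ifit1, 53 in Gbp7, 75 in Oas3, 124 in Bst2 and 120 in Rsad2. The stretch of Isg15 holds 3 overlapping matches and that of Bst2 holds 2. The ISRE letters as searched were not found in the windows of Irf1, Irf7, Ifi44, Ifih1, Oasl1 or Trim25, among others, which says nothing about other forms of the element or other regions.

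Several of the genes lie together in the genome, on GRCm38 with GENCODE coordinates. The IFIT genes are on chr19:34550694-34650009, the Oas genes Oas1a, Oas2 and Oas3 on chr5:120730333-120907521, the guanylate-binding protein genes Gbp2, Gbp3 and Gbp7 on chr3:142530342-142638008, the divergent pair Rsad2 and Cmpk2 on chr12:26442746-26479837, and Parp9, Dtx3l and Parp14 on chr16:35832874-35972605. Isg15 lies at chr4:156199424-156200818 and Irf7 at chr7:141262706-141266481. Near-identical copies can share reads: 32.4% of the 150-base windows of Oas1a transcripts also occur in a transcript of another gene, most often Oas1g, and 16.0% of those of Ifit3b in Ifit3, so the values of Oas1a and Ifit3b are uncertain to that extent. Parp9 and Dtx3l overlap on opposite strands over 8.0% of the exon bases of Dtx3l, and 16.8% of those of Ifi35 lie opposite an antisense gene. Between 11.3 and 13.9% of the exon bases of Gbp7, Herc6 and Rtp4 are also annotated to another gene on the same strand. Whether the libraries kept strand is not stated.

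The programme was readily detected in untreated log-phase cultures. The 41 genes together took 3295 to 3603 RPM (reads per M reads) in the Log NT libraries. This fell to 2375 to 2657 in Log DkkMo and 1430 to 1680 in Log scrMo, and to 914 to 981 in Stress NT, 1164 to 1238 in Stress DkkMo and 1257 to 1351 in Stress scrMo, and the ranges of the 6 groups did not overlap. Mean normalised counts (reads divided by the size factor of the library) were highest in Log NT for 36 of the 41 genes and lowest in Stress NT for 31. The order NT, DkkMo, scrMo from high to low held in log phase for 36 genes. Under stress both morpholino groups had a higher mean than NT for 32 genes and both a lower mean for 3. These orders were not counted over all genes.

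Compared per kilobase of exon, the highest level in Log NT was that of Bst2, which encodes tetherin, a membrane protein that holds budding virions at the cell surface, with 12046 normalised counts per kb. Isg15 (5706 per kb), Lgals3bp (3507), which encodes a secreted glycoprotein that binds galectin-3, and Ifi27 (2644), a mitochondrial and nuclear envelope protein, followed. The lowest were Oasl1 (99), Mx2 (100.0) and Mx1 (104). Under stress without morpholino Bst2 remained the highest, at 7324 per kb, while Isg15 stood at 561 and Ifi44 was the lowest, at 7.24.

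**Figure D1:**
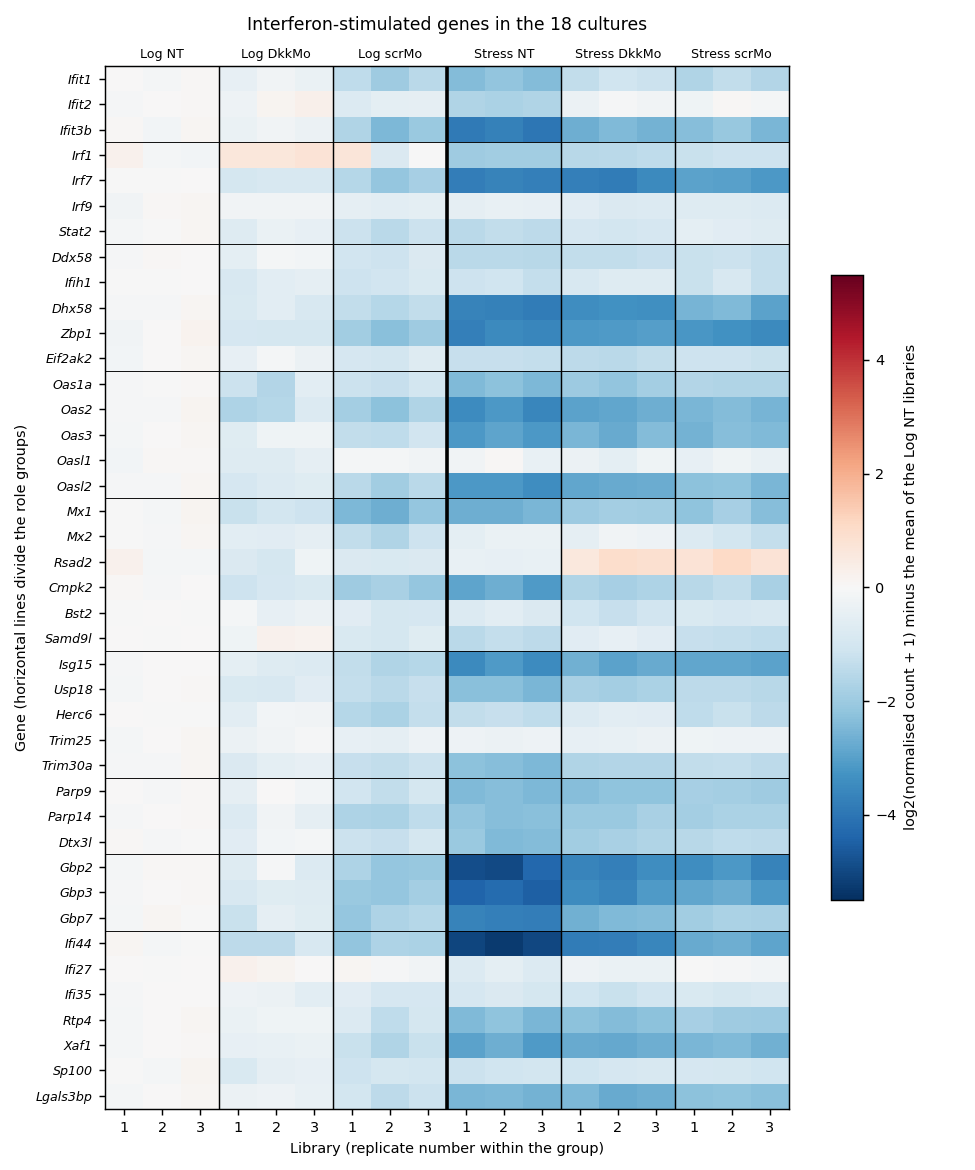
Heat map of the 41 genes (rows, in role groups) in the 18 culture libraries (columns, 3 per group). Colour is log2 of the normalised count plus 1, minus the mean of the 3 Log NT libraries, with blue below and red above it. The Stress NT columns are the darkest blue for most genes, the Log scrMo columns are bluer than Log DkkMo, and Rsad2 is red in the morpholino-treated stress columns.

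The first question was how the genes changed from log phase to nutritional stress in cells without morpholino. Of the 41 genes, 36 fell and 0 rose in Stress NT against Log NT (limma, adjusted p below 0.05 over all 16562 genes and a change over 1.5-fold), where 9.9% of all genes tested fell and 8.22% rose. All 41 differences were negative, with a median of -1.65 on the variance-stabilised log2 scale against -0.01 over all genes, and 40 had an unadjusted p under 0.05. With voom on the recovered reads 36 fell and 0 rose. Here and below, shares of all genes were not counted with voom, on other scales or for unadjusted p-values. The mean normalised count was over 2 times higher in log phase for 33 genes, over 5 times for 21 and over 10 times for 10. Ratios of means, here and below, were not counted over all genes. The 3 libraries of each group did not overlap for 40 genes, all lower under stress, where 38.8% of all genes were lower without overlap. Differences are on the deposited scale unless given as a ratio, and this scale compresses the changes of genes with few reads. The 1.5-fold threshold is a difference of 0.585 on it, so genes whose counts differed by over 1.5 times could stay uncalled.

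The antiviral effectors of the IFIT family bind viral RNA that lacks the host cap modification. Ifit3b had normalised counts of 2601, 2292 and 2672 in the Log NT libraries and 168, 188 and 159 in Stress NT. It was 14.7 times higher in log phase and changed by -2.76 (SE 0.11, adjusted p = 7.97e-14). Ifit1 went from 2372, 2155 and 2443 to 449.8, 513 and 449, a change of -1.83 (SE 0.094, adjusted p = 3.47e-12). Ifit2 moved least of these genes, from 695, 748 and 757 to 231, 219.8 and 235, with a change of -1.08 (SE 0.086, adjusted p = 1.69e-09). For each of these genes every stress library lay far below every log-phase library.

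Among the transcription factors, Irf7, the factor that amplifies interferon production, fell most. Its counts were 3391, 3465 and 3542 in Log NT and 249, 274 and 253 in Stress NT, a 13.4-fold higher level in log phase and a change of -2.88 (SE 0.078, adjusted p = 1.63e-15). Stat2, which acts in the complex with IRF9, fell from 5102, 5453 and 6028 to 1989, 2149.6 and 2022, by 1.31. Irf9, the DNA-binding subunit of that complex, went from 2380.4, 2799.7 and 2911 to 1926, 2022 and 1988, and its difference of -0.39 (SE 0.058, adjusted p = 6.09e-06) stayed under the 1.5-fold threshold. These genes therefore differed in size of change. Irf1, an interferon-γ-responsive activator, fell from a mean of 3128 ± 484 (SD, n = 3) to 811 ± 21.1, by 1.65.

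All 5 sensors of nucleic acid fell. Zbp1, a sensor of left-handed nucleic acid that can trigger necroptosis, had counts of 2721, 3125 and 3552 in Log NT and 229.7, 275 and 261 in Stress NT, a change of -2.75 (SE 0.081, adjusted p = 4.86e-15). Ifih1, which encodes the long double-stranded RNA sensor MDA5, changed least of the sensors, from 963, 956 and 1001 to 439, 455 and 392, by -0.86 (SE 0.077, adjusted p = 8.72e-09). Ddx58, which encodes RIG-I, a sensor of 5′ triphosphate RNA, was the most abundant, with 4267, 4630.4 and 4576 in Log NT and 1589, 1589.6 and 1568 in Stress NT. Dhx58 (LGP2), a regulator of both, was 13.6 times higher in log phase, a far larger ratio than the 2.84 of Ddx58 and the 2.27 of Ifih1. Eif2ak2 (PKR), the kinase that stops translation on double-stranded RNA, was 2.43 times higher in log phase.

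The OAS enzymes make the second messenger that activates RNase L. Oas2 had both the highest count of the family and the largest change of all 41 genes on the deposited scale: 6329, 6289 and 7273 in Log NT, 594, 732 and 556 in Stress NT, and a difference of -2.95 (SE 0.16, adjusted p = 6.95e-12). Oas3 and Oas1a were 8.47 and 5.28 times higher in log phase, and Oasl2 9.40 times. Oasl1, which represses translation of Irf7, was the exception. Its counts were 234, 268 and 272 in Log NT and 222, 266 and 194 in Stress NT, the libraries overlapped, and the difference of -0.10 (SE 0.062, adjusted p = 0.159) was not called.

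Of the other antiviral effectors, Cmpk2, a nucleotide kinase, fell most, from 685, 642 and 665 to 88.2, 104 and 75.9, with a change of -1.57 (SE 0.064, adjusted p = 1.72e-13). Mx1, a dynamin-like GTPase, was 6.30 times higher in log phase and its paralogue Mx2, an annotated polymorphic pseudogene, only 1.33 times, with 352, 343 and 389.9 in Log NT and 251, 283 and 279 in Stress NT and no call. Rsad2 encodes viperin, which makes a chain-terminating nucleotide. It lies next to Cmpk2 on chromosome 12, yet its counts of 996, 766 and 767 and 639, 620.1 and 633 gave a difference of only -0.30 (SE 0.11, adjusted p = 0.0203), under the fold threshold. Bst2 went from 10769, 11173 and 10691 to 6412, 7247 and 6180.1, a difference of -0.70 (SE 0.085, adjusted p = 5.72e-07) that fell short of the fold threshold once libraries were centred on their median (-0.54), and Samd9l, a translation inhibitor, was 2.65 times higher in log phase.

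Isg15, the ubiquitin-like modifier, had counts of 4147, 4365 and 4429 in Log NT and 376, 502 and 394 in Stress NT, 10.2 times higher in log phase, with a difference of -2.75 (SE 0.076, adjusted p = 2.34e-15). Usp18, which removes ISG15 from proteins and blocks signalling at IFNAR2, was 5.20 times higher in log phase, Trim30a 5.14 times and Herc6, the mouse ISG15 ligase, 2.56 times. Trim25, which ubiquitinates RIG-I, had the highest counts of this group and moved least, from 5068, 5590.2 and 5931 to 4508, 4434 and 4526, a difference of -0.28 (SE 0.063, adjusted p = 0.000654) that was not called.

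Parp9 and Dtx3l, which act as one complex, and their neighbour Parp14 changed by nearly the same amount. Dtx3l had 1689.6, 1543 and 1609 in Log NT and 394, 303 and 312 in Stress NT. Parp9 went from 1471, 1423 and 1519 to 274, 289 and 264 and Parp14 from 1371, 1428 and 1482 to 318, 284 and 292. The differences were -1.68, -1.73 and -1.63 (SE 0.094, 0.083 and 0.085), so their order is not resolved.

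The guanylate-binding proteins, GTPases that coat intracellular pathogens and respond to both interferon types, fell as a group. Gbp3 had counts of 1667, 1777 and 1849.7 in Log NT and 83, 93.3 and 76.8 in Stress NT, a change of -2.73 (SE 0.071, adjusted p = 1.63e-15). Gbp7 went from 712, 815 and 745 to 57.6, 55 and 53.1, a change of -1.94 (SE 0.093, adjusted p = 1.37e-12). As ratios of means, Gbp2 was 26.3 times and Gbp3 20.9 times higher in log phase, and only Ifi44, among all 41 genes, had a larger ratio.

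Among the remaining genes, all 7 fell. Ifi44, a cytoplasmic protein that restrains the interferon response, had 1685, 1460.4 and 1535 in Log NT and 46.3, 39.4 and 47.4 in Stress NT, a ratio of 35.2 and a change of -2.86 (SE 0.091, adjusted p = 1.14e-14). Lgals3bp went from 9134, 10142 and 10675 to 1743, 1776 and 1633, a change of -2.36 (SE 0.084, adjusted p = 3.65e-14). Xaf1, which binds the apoptosis inhibitor XIAP, was 7.51 times higher in log phase, Rtp4, a receptor transport protein, 5.22 times, Sp100, a nuclear body protein, 2.14 times and Ifi35 1.87 times. Ifi27 changed least, from 3961, 3794 and 3880.2 to 2277, 2697 and 2302, by -0.62 (SE 0.070, adjusted p = 1.88e-07), a call lost with median centring (-0.47) or without Stress NT replicate 1 (-0.58).

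**Figure D2:**
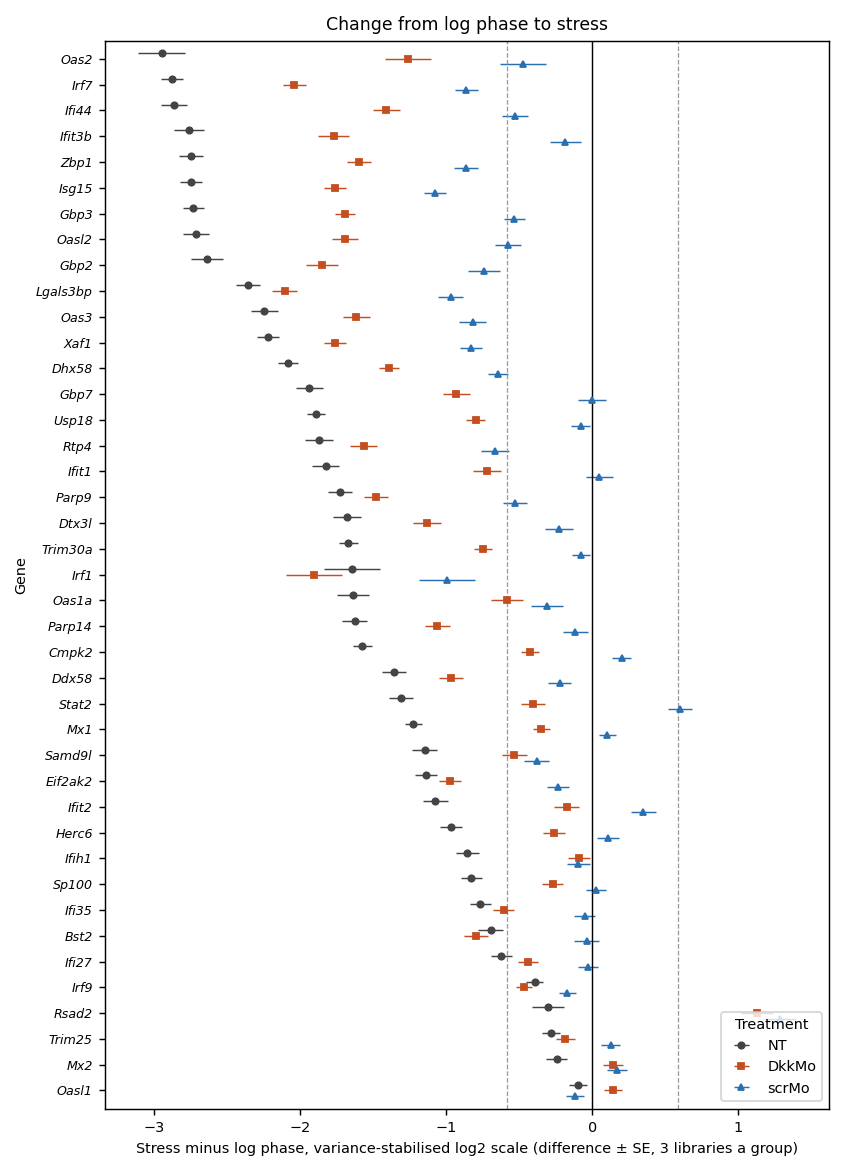
Difference between stress and log phase on the variance-stabilised log2 scale (points, with SE bars, 3 libraries a group) for each of the 41 genes (rows, ordered by the NT value), in NT (circles), DkkMo (squares) and scrMo (triangles). Dashed lines mark a 1.5-fold change on this scale. For most genes the NT point lies furthest left and the scrMo point nearest 0, and Rsad2 lies right of the upper dashed line in both morpholino groups.

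In scrMo-treated cultures the same transition moved far fewer of the genes. Against Log scrMo, 10 genes fell in Stress scrMo and 2 rose, where 6.28% of all genes fell and 4.38% rose, and the median difference was -0.19. Those that fell were Dhx58, Gbp2, Irf1, Irf7, Isg15, Lgals3bp, Oas3, Rtp4, Xaf1 and Zbp1, of which Rtp4 was lost without Log scrMo replicate 1 (-0.55) and Dhx58 without Stress scrMo replicate 3 (-0.58). Isg15 went from 1687, 1379 and 1462 to 591, 592 and 555, by -1.08 (SE 0.076, adjusted p = 8.53e-10). Irf7 went from 1152, 801 and 986 to 453, 437 and 384, a difference of -0.86 (SE 0.078, adjusted p = 2e-08). Ifit1 did not separate, with 879.7, 605 and 838 in Log scrMo and 729, 919 and 762 in Stress scrMo. The 2 genes that rose were Rsad2, from 479, 468 and 483 to 1413, 1772 and 1423 (1.29, SE 0.11, adjusted p = 9.9e-09), and Stat2, from 2444, 1963 and 2448 to 3775, 3595 and 3413 (0.60, SE 0.083, adjusted p = 4.8e-06). The rise of Stat2 was close to the fold threshold and was lost without Log scrMo replicate 2 or without Stress scrMo replicate 1, after which only Rsad2 was called higher.

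DkkMo-treated cultures lay between the others. Against Log DkkMo, 26 genes fell in Stress DkkMo and 1 rose, where 10.2% of all genes fell and 6.24% rose, with a median difference of -0.93. Lgals3bp fell most, from 7852, 8255 and 7427 to 1771, 1479.8 and 1568 (-2.11, SE 0.084, adjusted p = 2.59e-13). Irf7 went from 1762, 1905 and 1865 to 255, 238 and 304 (-2.04, SE 0.078, adjusted p = 1.53e-13), and Isg15 from 2976, 2669.6 and 2564 to 683, 555 and 624 (-1.76, SE 0.076, adjusted p = 6.42e-13). Both sets of libraries were well apart. Rsad2 again rose, from 482, 428 and 709 to 1261, 1615 and 1531 (1.13, SE 0.11, adjusted p = 3.2e-08). Ifih1 showed little difference in the DkkMo groups (-0.09, SE 0.077), with 534, 653 and 686 in log phase and 531, 593 and 587 under stress.

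The difference between these stress responses was tested as an interaction in the same model. The change from log phase to stress in scrMo minus that in NT was called positive for 36 genes, that is, a smaller fall or a rise in scrMo, and negative for 0, against 5.55% and 5.37% of all genes. No gene of the list had a negative value with an unadjusted p under 0.05, and voom gave 38 positive and 0 negative. For DkkMo minus NT, 24 genes were called positive and 0 negative, against 1.53% and 2.38% of all genes, with 0 negative at an unadjusted p under 0.05 and 28 and 0 by voom. For DkkMo minus scrMo, 0 were called positive and 27 negative, against 0.869% and 2.83% of all genes, with 1 positive at an unadjusted p under 0.05 and 0 and 30 by voom. The median values were 1.42, 0.71 and -0.74. Each of the 3 contrasts shares libraries with the other two and they are not independent of each other. For Isg15 the values were 1.67, 0.99 and -0.69 (SE 0.11), for Irf7 2.02, 0.84 and -1.18 (SE 0.11), and for Gbp2 1.901, 0.79 and -1.11 (SE 0.16). For Ifit1 they were 1.87, 1.11 and -0.77 (SE 0.13), and for Usp18 1.81, 1.09 and -0.72 (SE 0.091). All of these values passed the threshold. Bst2 differed from NT in scrMo (0.66) but had -0.10 (SE 0.12) in DkkMo. For Ifih1 the contrast of DkkMo with scrMo was 0.01 (SE 0.11), with both treatments above NT by 0.77 and 0.76.

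Since the stress response starts from the log-phase level, the groups were also compared within each condition. In log phase most of the genes were lower with scrMo than without morpholino. Of the 41 genes 35 were lower and 0 higher in Log scrMo, where 1.85% of all genes were lower and 0.592% higher. The median difference was -1.002, all 41 were negative, and no positive difference had an unadjusted p under 0.05, while voom called 36 lower and 0 higher. Mx1, with counts of 383, 365 and 429 in Log NT and 69.3, 59.6 and 89.2 in Log scrMo, had the largest ratio, 5.39. Oas2 had 1824, 1367 and 2097 in Log scrMo, a difference of -1.77 (SE 0.16, adjusted p = 1.9e-07), and Zbp1 826, 635 and 802, a difference of -1.73 (SE 0.081, adjusted p = 7.2e-11). Ifit3b (-1.68) and Irf7 (-1.59) were close to these. The 6 genes not called were Ifit2, Irf1, Irf9, Oasl1, Trim25 and Ifi27. Of these, Ifit2 (-0.42), Irf9 (-0.48) and Trim25 (-0.39) passed the adjusted p but not the fold, and Ifi27 had -0.05 (SE 0.070).

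Fewer genes passed the threshold with DkkMo in log phase, and 1 of them was higher than in NT. In Log DkkMo 11 genes were lower and 1 higher, where 0.314% of all genes were lower and 0.513% higher, with a median of -0.36. The lower genes were Cmpk2, Gbp3, Ifi44, Irf7, Isg15, Mx1, Oas1a, Oas2, Oasl2, Usp18 and Zbp1, of which Gbp3 was lost without Log DkkMo replicate 1 (-0.58) and Isg15 without Log DkkMo replicate 3 (-0.57). Oas2 had 2056, 2229 and 3929.8, a difference of -1.24 (SE 0.16, adjusted p = 5.22e-05), with 1 library well above the others. Ifi44 had 578, 577 and 833 (-0.99, SE 0.091, adjusted p = 1.37e-06) and Isg15 2976, 2669.6 and 2564 (-0.61, SE 0.076, adjusted p = 4.23e-05). Ifit1 (-0.31), Ifit2 (0.03) and Ifit3b (-0.26) were not called. On the log2 of the normalised count plus 1 or with voom, which do not compress low counts, 18 and 17 genes were lower. Irf1 was the gene called higher, with 3686, 2882 and 2817 in Log NT and 4822, 4782 and 5201 in Log DkkMo (0.62, SE 0.19, adjusted p = 0.0480). Its libraries in Log scrMo were far apart, at 4944, 1769 and 3076, and the call in DkkMo was lost when any 1 of the Log DkkMo libraries, Log NT replicate 2 or Log NT replicate 3 was left out.

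Against scrMo, the morpholino control, 21 genes were higher and 0 lower in Log DkkMo, where 1.66% of all genes were higher and 0.308% lower. The median difference was 0.60, with 1 gene negative at an unadjusted p under 0.05 (Oasl1, -0.26), and voom called 29 higher and 0 lower. The largest was Ifit3b, with 1941, 2216 and 2008 in Log DkkMo against 798, 448 and 606 in Log scrMo (1.42, SE 0.11, adjusted p = 1.08e-07). Gbp2 had 822, 1286 and 817 against 423, 309 and 318 (1.02, SE 0.11, adjusted p = 3.99e-06), and Ifit1 1676, 2015 and 1798 against 879.7, 605 and 838 (1.02, SE 0.094, adjusted p = 6.93e-07). All 3 genes around Parp9 and all 3 guanylate-binding protein genes were called higher, although Gbp7 was lost without Log DkkMo replicate 2 (0.50) or 3 (0.56), or without Log scrMo replicate 1 (0.52). Since DkkMo was lower than NT for many of the same genes, a gene can be higher than scrMo and lower than NT at once: Isg15 had means of 4314 in NT, 2737 in DkkMo and 1509.5 in scrMo. These comparisons share their libraries.

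**Figure D3:**
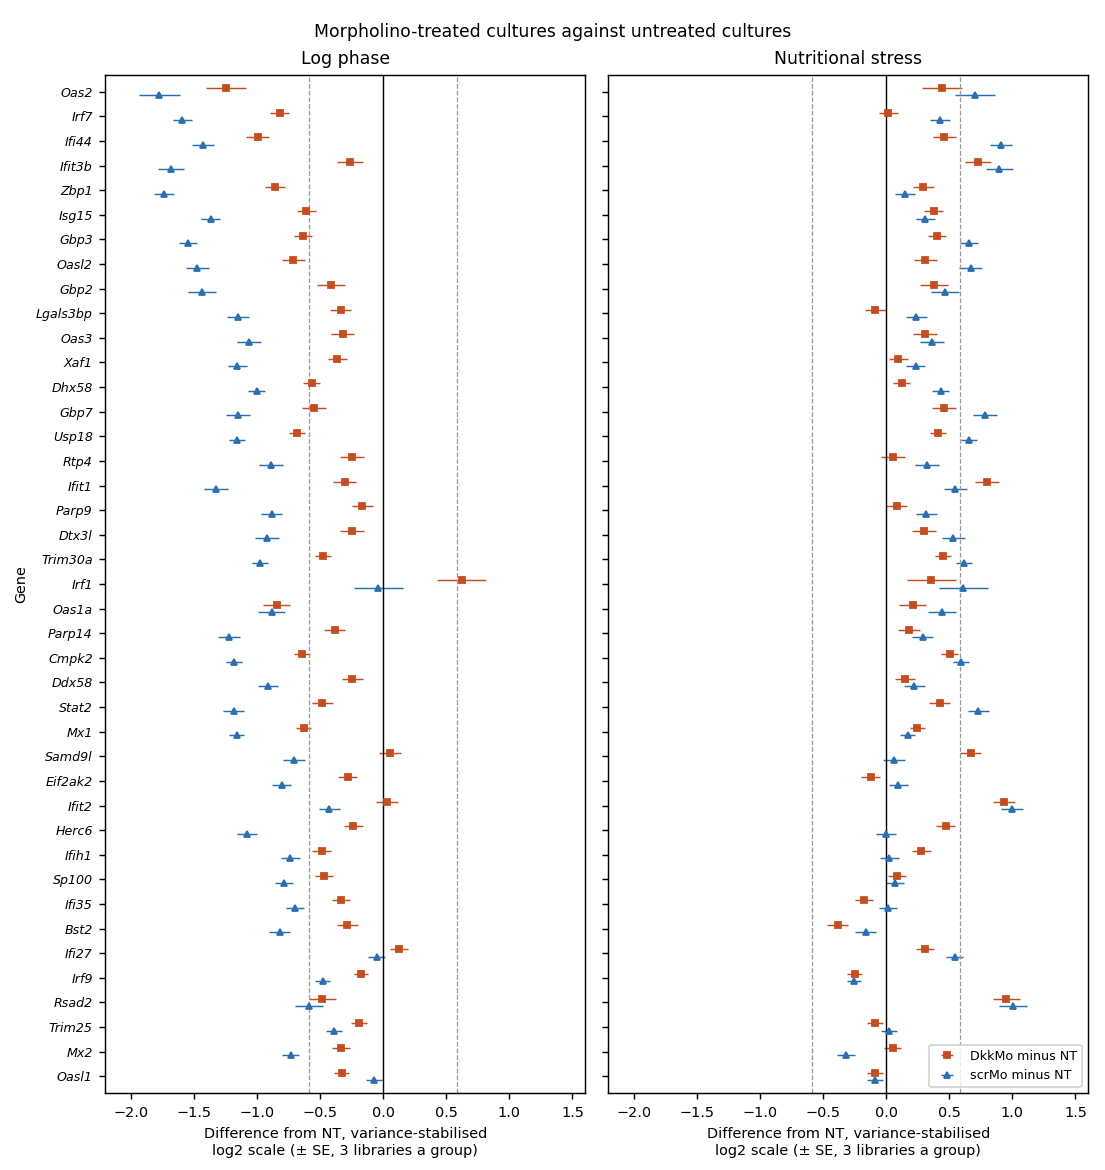
Difference of DkkMo (squares) and scrMo (triangles) from NT on the variance-stabilised log2 scale, with SE bars (3 libraries a group), for the 41 genes (rows) in log phase (left) and under nutritional stress (right). Dashed lines mark a 1.5-fold change on this scale. In log phase nearly all points lie left of 0, scrMo further than DkkMo, and under stress most lie right of 0.

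Under stress most differences from NT were positive. In Stress scrMo 13 genes were higher than in Stress NT and 0 lower, where 1.9% of all genes were higher and 2.54% lower, with a median difference of 0.37. Of the 41, 2 negative differences had an unadjusted p under 0.05, Mx2 (-0.32) and Irf9 (-0.25). The genes were Cmpk2, Gbp3, Gbp7, Ifi44, Ifit2, Ifit3b, Irf1, Oas2, Oasl2, Rsad2, Stat2, Trim30a and Usp18, of which Cmpk2 was lost without Stress NT replicate 3 (0.56) or Stress scrMo replicate 2 (0.55). Ifi44 had 46.3, 39.4 and 47.4 in Stress NT and 230.4, 239 and 209.9 in Stress scrMo, a ratio of 5.11 (0.91, SE 0.091, adjusted p = 2.24e-07). Rsad2 had 639, 620.1 and 633 and 1413, 1772 and 1423 (1.01, SE 0.11, adjusted p = 6.65e-07), and Ifit2 231, 219.8 and 235 and 614, 768 and 673 (1.00, SE 0.086, adjusted p = 3.33e-08). The count depended on the scale: 21 genes were higher and 1 lower, Mx2, with voom or on the log2 of the normalised count. The share of all genes called on these scales was not counted. With median centring 10 genes were called.

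In Stress DkkMo 5 genes were higher than in Stress NT and 0 lower, where 1.12% of all genes were higher and 1.54% lower, with a median of 0.30 and 3 negative differences at an unadjusted p under 0.05. They were the 3 IFIT genes, Rsad2 and Samd9l. Ifit1 had 449.8, 513 and 449 in Stress NT and 897, 1082 and 1032 in Stress DkkMo (0.80, SE 0.094, adjusted p = 2.76e-06), and Rsad2 1261, 1615 and 1531 (0.95, SE 0.11, adjusted p = 2.18e-06). Ifit2 had 585, 697 and 643 (0.93, SE 0.086, adjusted p = 1.73e-07). The called genes were not simply those with the largest ratios of counts. Mean counts were over 2 times higher than in Stress NT for 8 genes, among them Ifi44. It had 7.24 normalised counts per kb in Stress NT and 19.0 in Stress DkkMo and was not called. With voom 15 were higher and 0 lower. Irf7 was not among them, with 255, 238 and 304 in Stress DkkMo and a difference of 0.02 (SE 0.078). Bst2 was lower in all 3 DkkMo libraries, at 5137, 4546 and 5316, by less than 1.5-fold (-0.38, SE 0.085, adjusted p = 0.00132).

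The morpholino groups under stress were close to each other. Of the 41 genes 1 was higher and 0 lower in Stress DkkMo than in Stress scrMo, where 0.513% of all genes were higher and 0.489% lower, and the median difference was -0.17. At an unadjusted p under 0.05, 5 were positive and 18 negative, and voom called 3 higher and 4 lower. Samd9l was the called gene, with 1273, 1449 and 1277 in Stress DkkMo and 812, 788 and 749 in Stress scrMo (0.61, SE 0.085, adjusted p = 4.63e-05). Herc6 had a similar pattern under the threshold, with 599.6, 658 and 638 and 381, 424 and 363 (0.47, SE 0.077, adjusted p = 0.000206). Ifi44 went the other way, with means of 116 ± 12.3 and 227 ± 15 (SD, n = 3), a difference of -0.45 (SE 0.091, adjusted p = 0.00147). The Samd9l call was lost without Stress DkkMo replicate 2.

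**Figure D4:**
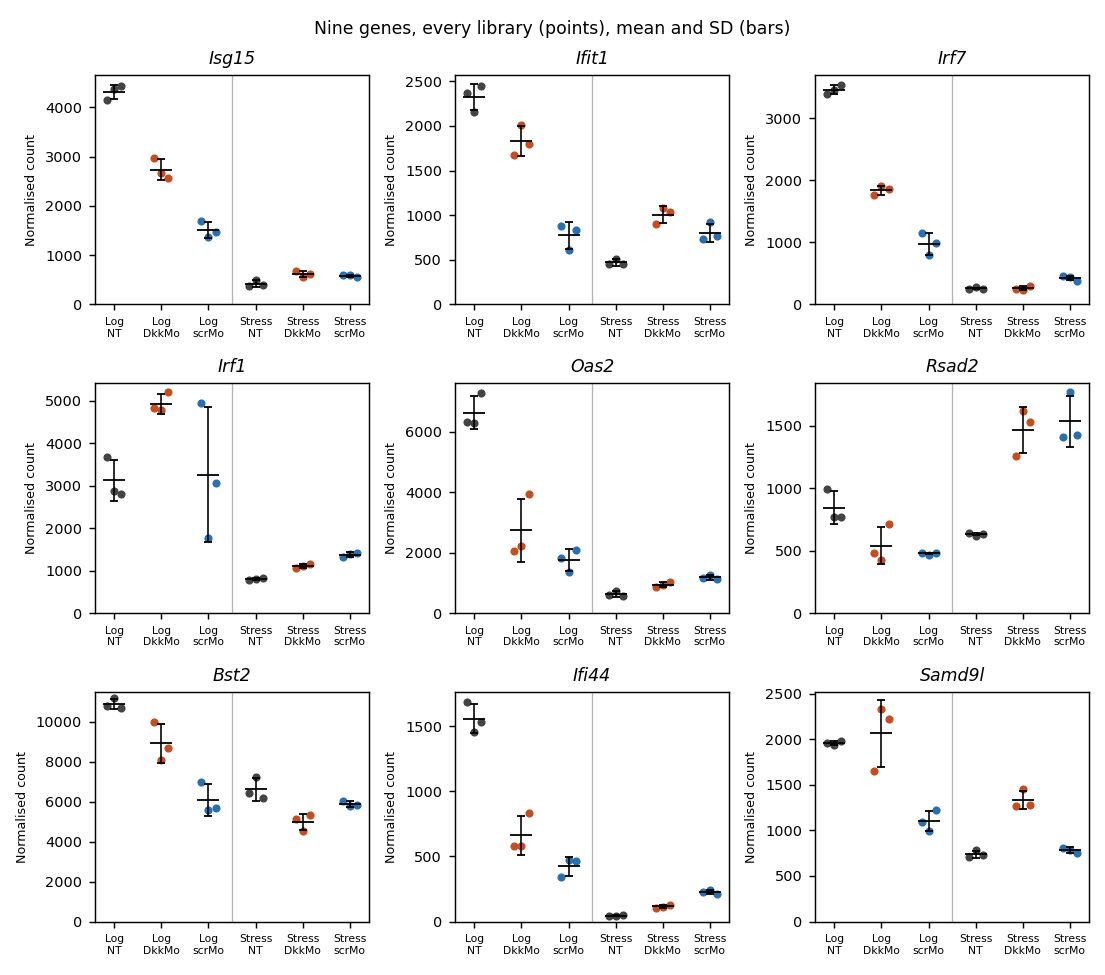
Normalised counts (linear axes from 0) of 9 of the genes in each of the 6 groups. Points are libraries, the horizontal bar is the mean and the error bar the SD (n = 3). Isg15, Irf7, Oas2 and Ifi44 are highest in Log NT and lowest in Stress NT, Irf1 is spread widely in Log scrMo, Rsad2 is highest in the morpholino-treated stress groups, and Samd9l is higher in DkkMo than in scrMo in both conditions.

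Some genes departed from the common pattern in more than one comparison. Rsad2 was highest in Stress scrMo, with a mean of 1536 ± 205 (SD, n = 3) against 843 ± 133 in Log NT, whereas its neighbour Cmpk2 had 227 ± 32.4 and 664 ± 21.6. Oasl1 lay between 165 and 258 in all 6 groups and was called in none of the 9 comparisons, and neither were Irf9 and Trim25. Of the 9 comparisons, Ifi27 was called in the NT stress comparison, and it was also among the genes whose stress response differed between scrMo and NT. Mx2 was lowest in Log scrMo, at 138 ± 23.3, and had 271 ± 17.6 in Stress NT.

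The full profiles of other members, given as mean normalised counts ± SD (n = 3) in the order NT, DkkMo and scrMo, show how far the common pattern reached. Oasl2, an OAS-like protein with ubiquitin-like domains, had 4825 ± 358, 2843 ± 252 and 1573 ± 244 in log phase and 513 ± 53.6, 694 ± 31.5 and 964 ± 106 under stress. Oas3, which binds long double-stranded RNA, had 2052 ± 158, 1599 ± 265 and 846 ± 111 in log phase and 242 ± 27.3, 352 ± 46.1 and 374 ± 32.3 under stress. Both descended from NT through DkkMo to scrMo in log phase and ascended in that order under stress. Oas1a had 1205 ± 57.7, 576 ± 203 and 539 ± 47.4 in log phase and 228 ± 18.2, 297 ± 30.3 and 387 ± 9.89 under stress, so that in log phase DkkMo lay next to scrMo and far from NT (DkkMo against scrMo 0.04, SE 0.11), unlike Oas3 (0.74, SE 0.094). This contrast between the 2 enzymes was not tested, and Oas1a shares sequence with a near-identical gene.

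Usp18 had 2422 ± 136, 1411 ± 133 and 941 ± 76.8 in log phase and 466 ± 40.2, 699 ± 35.8 and 876 ± 36 under stress. Trim30a, a regulator of inflammatory signalling, had 1371 ± 80.9, 917 ± 119 and 571 ± 36.2 in log phase and 267 ± 19.2, 444 ± 8.86 and 528 ± 22.9 under stress. For both of these the means under stress ascended from NT to scrMo and the log-phase means descended. Herc6 had 996 ± 22.3, 812 ± 131 and 347 ± 55 in log phase and 389 ± 16.9, 632 ± 29.5 and 389 ± 31.4 under stress, so that DkkMo was the highest of the stress groups, as it was for Samd9l, with 1962 ± 20.3, 2069 ± 368 and 1102 ± 112 in log phase and 741 ± 38.7, 1333 ± 100.4 and 783 ± 31.7 under stress. Ifih1 and Mx2 also had their highest stress mean with DkkMo, at 570.3 ± 34.5 and 289 ± 32, as did Ifit1, Isg15, Zbp1, Mx1 and Sp100.

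Among the sensors, Dhx58 had 948 ± 67.6, 561 ± 68.9 and 353 ± 31.9 in log phase and 69.8 ± 4.02, 89.6 ± 2.33 and 153 ± 27.9 under stress, and Eif2ak2 had 3577 ± 315, 2900.1 ± 364 and 1934 ± 206 in log phase and 1472 ± 43.4, 1333 ± 55.3 and 1594 ± 43.9 under stress. Dhx58 thus spanned a wide range at low counts, while Eif2ak2 moved over a narrow range at high counts. Xaf1 had 2378 ± 126, 1789 ± 59.1 and 926 ± 141 in log phase and 317 ± 47.4, 352 ± 17.9 and 411 ± 34.1 under stress and Rtp4 had 2277 ± 188, 1869.7 ± 97.3 and 1123 ± 249 in log phase and 436 ± 53.2, 462 ± 28.2 and 603 ± 36 under stress. For these the NT and DkkMo means under stress lay close together, with differences of 0.10 (SE 0.077) and 0.06 (SE 0.095). Sp100 had 1168 ± 103, 773 ± 112 and 571 ± 31.3 in log phase and 545 ± 30.7, 595 ± 42.5 and 585 ± 29.8 under stress and Ifi35 2077 ± 68.3, 1593 ± 172 and 1179.8 ± 146 in log phase and 1110.4 ± 63, 952 ± 65.3 and 1123 ± 48.3 under stress, and for neither was any comparison within stress called. Mx1 had 392 ± 33, 179 ± 12.4 and 72.7 ± 15.1 in log phase and 62.3 ± 5.22, 102 ± 4.42 and 89.3 ± 16.8 under stress.

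The genes that act before these targets were taken from separate lists. Of 23 listed interferon genes and receptor genes, 5 had a value, and no interferon gene and not Ifnar2 was among them, so ligand transcripts were not analysed here. Ifnar1 had means of 1889 ± 49.4 in Log NT and 2258 ± 67.1 in Stress NT (SD, n = 3), with a difference of 0.23 (SE 0.048, adjusted p = 0.000405), and the interferon-γ receptor genes Ifngr1 (-0.11) and Ifngr2 (-0.07) were not called either. Ifnlr1, a subunit of the type III interferon receptor, rose from 19.5, 15 and 18.8 to 114, 157 and 146 (0.85, SE 0.063, adjusted p = 6.36e-10) and by 0.78 in scrMo and 0.92 in DkkMo. Of the signalling genes, Jak1 (-0.01) and Tyk2 (-0.56) were not called in Stress NT, and the phosphatase gene Ptpn11 fell from log phase to stress in DkkMo (-0.64).

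Of 15 genes of nucleic acid sensing with a value, 4 fell in Stress NT: Samhd1 (-1.05), a nucleotide hydrolase, Ikbke (-1.12), a kinase of IRF3, Adar (-0.74), which edits double-stranded RNA, and Tlr3 (-0.69). None rose, where 9.9% of all genes fell and 8.22% rose. Cgas (-0.41, SE 0.060) and Mavs (-0.04, SE 0.047), the DNA sensor and the adaptor of the RNA sensors, were not called in Stress NT. Nlrc5 rose under stress in scrMo (0.88) and DkkMo (0.89) and was lower in Log scrMo than in Log NT (-0.68), and Ticam1, the adaptor of TLR3, rose in DkkMo (0.75) and was higher in Stress DkkMo than in Stress scrMo (0.62). Of 33 further interferon-induced genes with a value, 29 fell and 0 rose in Stress NT, against the same shares of all genes, with a median of -1.34. In Log scrMo 22 were lower and 0 higher than in Log NT, where 1.85% of all genes were lower and 0.592% higher, with a median of -0.79. The 29 that fell in Stress NT included the GTPase genes Irgm1, Irgm2, Iigp1, Tgtp2 and Gbp9, Oas1b, Oas1g, Ifi203, Ifi205, Ifi27l2a, Ifitm1, Trim34a and Trim12c. The others were Parp12, Helz2, Nmi, Tor3a, Ddx60, Phf11d, Pml, the chemokine genes Cxcl10 and Ccl5, Apol9a, Apol9b, Slfn2, Slfn8, Slfn9, Znfx1 and Lgals9. Ifi27l2a fell most, from 2158, 1992 and 2331 to 25.3, 53.9 and 35.1 (-3.34, SE 0.12, adjusted p = 2.63e-14). The chemokine Cxcl10 had 1626, 1299 and 1256 and 191, 200.1 and 174 (-1.95, SE 0.11, adjusted p = 1.12e-11), with means of 549 in Stress DkkMo and 557 in Stress scrMo. Sp110 (0.59) and Tdrd7 (0.62) rose from log phase to stress in scrMo, as did Gbp9, which fell in Stress NT (-1.21) but rose in both scrMo (1.22) and DkkMo (0.69).

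Other properties of the libraries moved with these groups, and their part in the results was not tested. The share of reads on mitochondrial genes was 2.30 to 2.68% in the log-phase libraries, 1.54 to 1.88% in Stress NT and Stress DkkMo, and 5.30 to 5.80% in Stress scrMo. The 7 proliferation genes with a value all fell in Stress NT, where 9.9% of all genes fell and 8.22% rose, with a median of -2.25. Their summed normalised count was 19192 to 22918 in Log NT, 19935 to 29185 in Log DkkMo, 12585 to 14928 in Log scrMo, and 3267 to 3593 over the stress groups. Of the 6 osteoblast lineage genes with a value, 3 fell and 1 rose in Stress NT, against the same shares of all genes. Their summed normalised count had a mean of 229760 in Log NT, 173200 in Log DkkMo and 128440 in Log scrMo. Under stress it was 76645 in NT, 60493 in DkkMo and 79130 in scrMo. Mki67 had a mean of 4022 in Log NT, 2084 in Log scrMo and 72.9 in Stress NT. Of the 8 leukocyte and macrophage markers 5 had a value, with a sum of 1213 to 1341 in Log NT and 2239 to 2556 in Stress NT. Cd68 (399.7 and 1425) and Csf1r (445 and 740.0) made up most of it, and both were higher in Stress NT. The other markers went the other way: the common leukocyte antigen gene Ptprc stood at 15.5 and 4.89, and the rest, Lyz2 and Cd14 together, was smaller in Stress NT than in Log NT. The lineage markers Runx2, Col1a1, Spp1 and Sox9 were detected in every group, whereas Alpl and Bglap were near 0, at no more than a mean of 33.2 in any group. Of the other listed markers, Sp7, Ibsp and the chondrocyte gene Acan had no value, and the levels of Sparc and Col2a1 are not reported here. In bulk RNA, fewer cells expressing a gene and less RNA per cell cannot be told apart.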

How the data were processed

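Poly(A) RNA of 18 cultures was sequenced in 150-base read pairs. Per the labels and the methods, the authors mapped reads to GRCm38 (HISAT2 2.1.0, SAMtools 1.9), counted them with featureCounts of Subread 2.0.0 and deposited variance-stabilised log2 values made with DESeq2. The strand setting is not given in the sources used here. The transformation was inverted to whole reads, which came out within 0.05 of an integer for 100% of culture values and 98.9% of tumour values.

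The members and the lists were chosen with earlier results of these data known. The log2 values as deposited were fitted with limma 3.58.1 (R 4.3.3; trend, all 18 cultures, 6 group means), with Benjamini-Hochberg adjustment over 16562 genes, after 14 rows whose values spanned over 6 log2 units within a group had been set aside. A gene was called at an adjusted p under 0.05 and a change over 1.5-fold on the deposited scale, a difference of 0.585. That scale compresses low counts, so a ratio of counts over 1.5 could stay under the threshold. The scripts were tested on simulated data. In each role group the genes with the largest and the smallest change in the NT stress comparison and the highest mean count in Log NT were named, and others, among them Rsad2, Irf1, Samd9l, Ifit1, Mx1, Herc6 and Gbp2, after their values were seen. Alternatives were log2 of the normalised count plus 1 or 5, voom on the recovered reads, median centring, quantile normalisation, a filter on low values (mean normalised count of 10), a fit of only the groups compared, the replicate number as a block and leaving out each library. Shares of all genes called were counted for the main fit and not for the alternatives. Depth was 25.9 to 44.8 M reads per culture library.

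Same-numbered libraries did not deviate together in every pair of groups, so the numbers were not taken to pair the cultures. The human Dkk-1 transgene was not analysed here, and some results for the signalling list are not reported here.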

Additional observations from a re-analysis of the deposited data

Results flagged for a closer look

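In the cultures, the change from log phase to stress differed in at least 1 contrast of treatments for each of 7 genes, by the interaction term of the limma model. These genes were chosen with earlier results of these data known. Bst2 for DkkMo less NT and Ifih1 for DkkMo less scrMo were not called. Stress minus log phase in scrMo, less the same in NT, was 1.675 for Isg15, 2.018 for Irf7, 1.875 for Ifit1, 1.814 for Usp18, 0.6577 for Bst2, 1.901 for Gbp2 and 0.7598 for Ifih1. For DkkMo less NT it was 0.986 for Isg15, 0.8382 for Irf7, 1.105 for Ifit1, 1.093 for Usp18, 0.7908 for Gbp2 and 0.7655 for Ifih1. For DkkMo less scrMo it was -0.6885 for Isg15, -1.18 for Irf7, -0.7695 for Ifit1, -0.7203 for Usp18, -0.7586 for Bst2 and -1.11 for Gbp2. The first and second sets share the NT libraries, and the third is their difference. The log-phase levels of the 3 treatments also differed for these genes, and the part of the starting level in the interaction was not tested.

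In the tumours, 4 of 92 combinations of a gene and a group of 4 had 1 tumour far from the other ones, where chance gives about 1 in 20. On the deposited log2 scale these were the lowest DkkMo tumour for Oas3 (6.894), the highest NT tumour for Rsad2 (10.91), the highest DRB tumour for Parp9 (11.28) and the highest combination tumour for Ifi35 (10.57).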

How the results depend on the processing

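Counts of genes called in the 3 stress comparisons, and in log phase for scrMo against NT and DkkMo against scrMo, stayed within 1.5 times the main count under each change of scale, filter or model run for them. Those of the 3 interactions did so with either pseudocount, voom, median centring, quantile normalisation and the filter, and the interactions were not run with only the groups compared, with the block or without single libraries. No called gene of the 9 comparisons reversed. The other counts depended on the scale. For scrMo against NT under stress, 21 genes were higher and 1 lower on the log2 of the normalised count plus 1 or plus 5 or with voom. Median centring called 10 genes, all among the 13 of the main fit, and quantile normalisation 12, of which 11 were among those 13. For DkkMo against NT under stress, 15 genes were higher with a pseudocount of 1, 14 with 5 and 15 with voom. For DkkMo against NT in log phase, 18 genes were lower with a pseudocount of 1 and 17 with 5 or voom, and 0 were higher with either pseudocount or with median centring. For DkkMo against scrMo under stress, 3 were higher and 4 lower with either pseudocount or voom. These scales do not shrink the changes of thinly covered genes as the deposited one does, but the cause was not tested.

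Leaving out 1 library gave 0 to 1 genes higher for DkkMo against NT in log phase, 1 to 2 for stress against log phase in scrMo, and 0 to 1 for DkkMo against scrMo under stress. Of 162 calls of a gene in a comparison, 19 lost the threshold under at least 1 alternative, among them Rsad2 for scrMo against NT in log phase, Ifi35 for stress in DkkMo, and Irf1 for DkkMo against scrMo in log phase, which had 0.32 without Log scrMo replicate 2. Median centring moved the median of all genes to 0.145 for stress in NT and 0.153 for stress in DkkMo, and differences of the genes described are to be read against it under that setting.

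With the replicate number as a block, which left out the Stress NT libraries because 2 of them share a number, the counts did not change: 2 higher and 10 lower for stress in scrMo, 1 and 26 for stress in DkkMo, 0 and 35 for scrMo against NT, 1 and 11 for DkkMo against NT and 21 and 0 for DkkMo against scrMo in log phase, and 1 and 0 for DkkMo against scrMo under stress. Correlations of same-numbered deviations ran from -0.0487 to 0.624 between Log DkkMo and Log scrMo, with a mean of 0.38 against -0.18 for other numbers. In no pair of groups did all same-numbered correlations exceed 0.1. Whether same-numbered cultures were handled together is not stated, and these values do not settle it. All 41 genes with a value were detected in every group, and the effect of depth was not tested. With 3 libraries a group, differences under 0.585 on the deposited scale were not called by rule, whatever their ratio of counts.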

Other observations

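The series also holds 16 tumours grown from these cells in nude mice, 4 each without treatment (NT), with doxorubicin, a cytotoxic chemotherapeutic (DRB), with DkkMo, and with both. They were read from fixed tissue and normalised apart from the cultures. Of the 43 interferon-stimulated genes, 23 had a value among 12595 genes. Against NT, limma called 0 of the 23 in either direction with DkkMo, DRB or the combination, as it did for all genes, and 3 of the 23 had an unadjusted p under 0.05 in each comparison. The combination against DkkMo gave 0 calls, with 1 at an unadjusted p under 0.05. The share of all genes at that level was not counted for any tumour comparison. The median standard error was 1.02 on the log2 scale with 4 tumours a group.

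Trim30a was the 1 gene of the 23 called in the combination against DRB (-6.95, SE 0.85, limma adjusted p = 0.000136), where 6.92% of all genes were lower and 0.429% higher, and 4 of the 23 had an unadjusted p under 0.05. The row of Trim12c, a related gene, held nearly the same values in every tumour: normalised counts in the DRB tumours ran from 13733400 to 72483400 for Trim30a and from 13733900 to 72486900 for Trim12c, so these rows cannot be told apart and the call is not specific to Trim30a. In the NT tumours Trim30a ran from 146273 to 11110500, in the DkkMo tumours from 156016 to 609047 and in the combination from 175768 to 360375. In the cultures Trim30a had mean normalised counts between 267 and 1371. The reason for the very high tumour values was not tested.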
